A study of Mus musculus with 8 samples.

Results

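Livers of alcohol-fed mice that lack Elf4 in the gut were compared with livers of alcohol-fed control mice by RNA sequencing. The comparison took the 2 Elf4-/--EtOH and the 2 WT-EtOH libraries, 4 of the 8 libraries of the series, and covered the 13993 genes with enough counts of the 19267 genes in the table. Elf4 encodes an ETS family transcription factor. In Elf4-/- mice floxed Elf4 alleles (Elf4 loxp/loxp) were deleted by a Cre recombinase under the villin promoter, which is active in intestinal epithelium, so the design leaves the gene intact in liver cells. The authors describe the WT mice as Cre mice. All mice were male C57BL/6, began the diet at 6 weeks of age and were sampled at 9 weeks. The EtOH groups received a Lieber-DeCarli liquid diet holding 5% (w/v) alcohol for 21 days, pair-fed with groups given isocaloric maltose dextrin, WT-Control and Elf4-/--Control. Those control diet groups, with 2 libraries each, were used for the spread between replicates and to ask whether a genotype difference depended on the diet. The labels do not say whether a library is 1 mouse or a pool, so every p-value measures the spread between these samples only.

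The liver makes cholesterol from acetyl-CoA through the mevalonate pathway, in which squalene epoxidase (Sqle) is a rate-controlling enzyme. The pathway is run by the transcription factor SREBP2 (Srebf2), which is held in the endoplasmic reticulum by the Insig proteins while sterol is plentiful and is carried out by Scap when sterol falls. SREBP1 (Srebf1) serves fatty acid synthesis in the same way. Kupffer cells are the resident macrophages of the liver and line its sinusoids, where they meet portal blood coming from the gut. Interferon-stimulated genes are antiviral effectors such as Isg15, a ubiquitin-like modifier, and are read out through a promoter motif called the interferon-stimulated response element.

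Promoter sequences are given for 3 called cholesterol synthesis genes and for Isg15, the first because that group held most calls, the other because Isg15 was called and carries a known response motif. Each is the 250 bases before the RefSeq start on GRCm38.p6, written 5′ to 3′ on the gene's own strand, with matches to a searched motif in capitals. The motifs were the inverted CCAAT box ATTGG, the core of the sterol regulatory element TCACNCCAC, the interferon-stimulated response element and a heat shock element. Each was searched on both strands, so that ATTGG also appears as CCAAT.
Hmgcs1, chr13:119690101-119690350, plus strand: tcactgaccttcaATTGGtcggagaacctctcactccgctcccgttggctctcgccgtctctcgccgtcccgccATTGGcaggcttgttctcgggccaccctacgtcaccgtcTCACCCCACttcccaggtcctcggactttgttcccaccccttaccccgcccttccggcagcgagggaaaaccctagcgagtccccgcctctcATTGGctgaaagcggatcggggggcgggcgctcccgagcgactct
Msmo1, chr8:64733579-64733828, minus strand: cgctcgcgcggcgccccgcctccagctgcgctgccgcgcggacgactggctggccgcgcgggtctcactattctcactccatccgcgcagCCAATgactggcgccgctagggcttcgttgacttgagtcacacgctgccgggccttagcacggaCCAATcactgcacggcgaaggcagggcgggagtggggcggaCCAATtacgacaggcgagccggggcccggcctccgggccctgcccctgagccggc
Nsdhl, chrX:72918271-72918520, plus strand: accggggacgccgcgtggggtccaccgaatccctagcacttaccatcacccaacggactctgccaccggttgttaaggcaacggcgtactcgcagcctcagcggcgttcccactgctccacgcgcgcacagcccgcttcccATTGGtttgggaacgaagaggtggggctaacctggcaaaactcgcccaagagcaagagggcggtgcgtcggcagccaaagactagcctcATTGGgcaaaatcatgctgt
Isg15, chr4:156200819-156201068, minus strand: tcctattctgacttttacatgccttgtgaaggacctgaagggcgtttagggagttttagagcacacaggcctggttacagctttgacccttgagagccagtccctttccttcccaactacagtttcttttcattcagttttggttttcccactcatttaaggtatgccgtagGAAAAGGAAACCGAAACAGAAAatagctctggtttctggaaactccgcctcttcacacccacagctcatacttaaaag
In Hmgcs1 the capitals are, from the left, a pair of CCAAT boxes, the sterol regulatory element core and a further CCAAT box. Msmo1 and Nsdhl hold CCAAT boxes alone. In Isg15 the capitals are 3 overlapping response elements, which begin 78, 72 and 66 bases before the start. RefSeq promoters were found for 16 of the 21 cholesterol synthesis genes, and 15 of those 16 held ATTGG (93.8%), against 4148 of 10294 tested genes (40.3%) and 33.8% of all 32851 listed promoters. A gene counted if any of its listed promoters held the motif. TCACNCCAC was found in 1 of the 16, Hmgcs1, against 134 of 10294 tested genes (1.3%) and 1.05% of all promoters. Among 23 interferon response genes with a promoter, 12 held the interferon-stimulated response element (52.2%), against 335 of 10294 tested genes (3.25%) and 2.98% of all promoters. Of the 17 called genes with a promoter, 11 held ATTGG (64.7%). The heat shock element was found in 0 of those 17, against 0.466% of tested genes. These matches describe letters in a window and are no test of binding.

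The 4 libraries compared held 6585347 to 8254148 counts, and each had at least 99.76% of them in tested genes. Expression is given as CPM, counts scaled to library size with TMM factors. The liver was well represented, with hepatocyte markers such as Alb (albumin) and Ttr (transthyretin) abundant in every library and all 8 markers tested. Elf4 had 27 and 36 counts in WT-EtOH and 14 and 34 in Elf4-/--EtOH, and its log2 fold change was -0.06 ± 0.50 (SE), or 0.35 without Elf4-/--EtOH replicate 1. Since the deletion is intestinal, these counts are only a weak check of the labels. Replicates differed most in Elf4-/--EtOH: its 2 libraries had an SD of log2 differences of 0.676 across 7166 genes, against 0.331 in WT-EtOH. Genes of the mitochondrial genome took 12.5% and 10.8% of counts in WT-EtOH and 22.1% and 18.3% in Elf4-/--EtOH. That share was higher in Elf4-/- under alcohol and lower in Elf4-/- on the control diet (33.7% and 23.4% in WT-Control, 18.7% and 18.5% in Elf4-/--Control). With those genes removed before scaling, 21 genes were called higher and 3 lower in the comparison that follows.

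Of the 13993 genes, 17 rose (0.121%) and 3 fell (0.0214%) in Elf4-/--EtOH against WT-EtOH by edgeR's quasi-likelihood test at a Benjamini-Hochberg adjusted p under 0.05. The genes that rose were led by 7 of cholesterol synthesis (among them Sqle, Msmo1, Dhcr7, Nsdhl, Hmgcs1 and Fdft1), with the lipogenic regulator Thrsp, the interferon-stimulated gene Isg15 and 8 others. Those that fell were a pair of Kupffer cell markers, Cd5l and Clec4f, and the inducible heat shock gene Hspa1b. The libraries of the groups did not overlap in CPM for any of the 20 genes, which was also true of 20% of all genes in the higher direction and 21.4% in the lower. DESeq2 called all 20 as well, among 149 higher (1.06%) and 31 lower (0.222%) in all. By edgeR's unadjusted p under 0.05, 865 genes were higher (6.18%) and 605 lower (4.32%), the shares for the list counts below. Scaling by library totals alone, which moved the median of all genes to -0.23, called 10 higher and 4 lower; it also turned negative the medians of the lipid droplet, bile acid, ethanol metabolism, endotoxin, matrix, tight junction, clock and red blood cell lists described below. The calls were lost without a WT-EtOH library while the fold changes stayed about as large: without WT-EtOH replicate 1 edgeR called 0 higher and 0 lower (by unadjusted p under 0.05, 550 and 320), and without replicate 2 it called 2 higher and 0 lower. The median log2 fold change of the 17 genes was 2.30, and 2.16 and 2.53 in those fits, which keep the more widely spread Elf4-/--EtOH pair and have fewer libraries to estimate the spread from. Without Elf4-/--EtOH replicate 1 there were 113 and 41, and without replicate 2 there were 272 and 94, with the lone library of that arm then assumed to vary like the other groups. With a control diet library left out, 5 to 12 genes were called higher and 0 to 2 lower. Signs held for all 20 genes with each library left out.

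**Figure D1:**
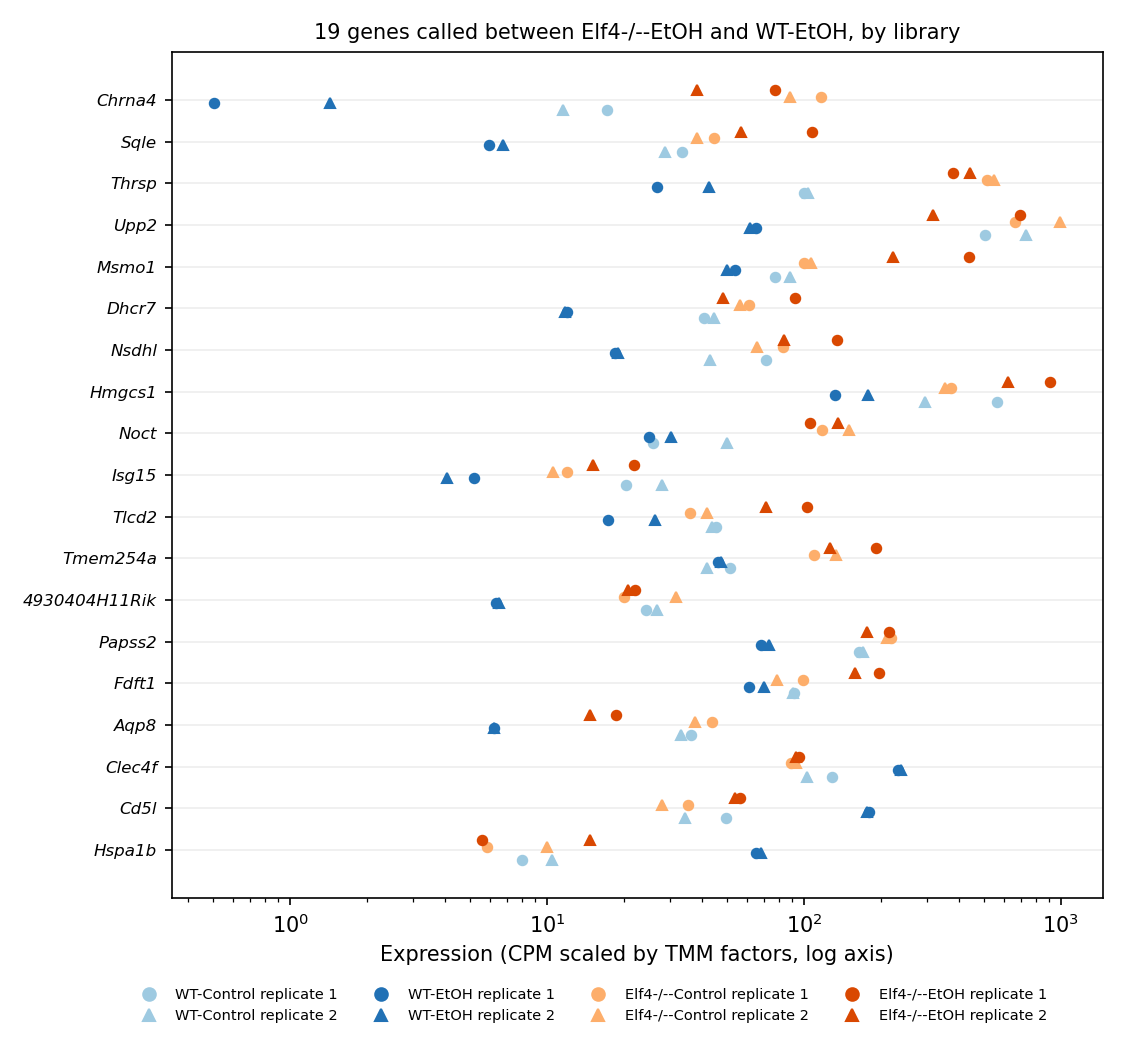
Expression of 19 of the 20 called genes in all 8 libraries (CPM scaled by TMM factors, log axis), 1 row per gene sorted by log2 fold change, with circles for replicate 1, triangles for replicate 2 and a colour per group. The WT-EtOH points lie below the other 6 libraries for 14 of the 16 plotted genes that rose (10.5% of all genes). They lie above the other 6 for all 3 that fell (11.6% of all genes).

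Cholesterol synthesis was the gene group with most calls. All 21 genes of the list were tested, 19 were higher in Elf4-/--EtOH, and 7 of the 21 passed the adjusted threshold, against 0.121% of all genes. Those 19 also had an unadjusted p under 0.05, where the background was 6.18%, and 50.1% of all genes had a fold change above 0. The median log2 fold change of the list was 1.77, against 0.00 over all genes tested. DESeq2 called 16 of the 21, against 1.29% of all genes in either direction.

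Among the early steps, Hmgcs1 (chr13:119690379-119708260), which condenses acetyl-CoA units to HMG-CoA, read 132 and 177 CPM in WT-EtOH and 904 and 624 in Elf4-/--EtOH, a rise of 2.30 ± 0.34 on the log2 scale (SE, edgeR adjusted p = 0.0418). Its annotated exons share bases with Gm48342 on the other strand, and whether reads were counted by strand was not given in the sources used here. Between mevalonate and farnesyl diphosphate, Mvk, Pmvk, Mvd, Idi1 and Fdps had log2 fold changes of 1.78, 1.64, 2.49, 1.86 and 2.15, none past the adjusted threshold in edgeR and all 5 past it in DESeq2. Mvd, which decarboxylates mevalonate diphosphate, read 6.32 and 4.08 CPM in WT-EtOH against 22.8 and 35.2 (edgeR adjusted p = 0.112). Ggps1 leads away from sterols to geranylgeranyl diphosphate and was at 16.8 and 15.2 CPM in WT-EtOH and 15.9 and 11.4 in Elf4-/--EtOH, so the groups overlapped.

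From squalene onward the size of the difference varied by step. Fdft1 (chr14:63145150-63179578), which makes squalene, read 60.9 and 70.2 CPM in WT-EtOH and 196 and 158 in Elf4-/--EtOH (log2 1.43 ± 0.21, SE, edgeR adjusted p = 0.0418). Its exons share bases with Ctsb on the opposite strand, which had a log2 fold change of -0.20. Sqle (chr15:59315077-59331192), which oxidises squalene, read 5.94 and 6.73 CPM in WT-EtOH and 107 and 56.8 in Elf4-/--EtOH. This 12.9-fold rise (log2 3.69 ± 0.32, SE, edgeR adjusted p = 0.00173) was larger than that of any other gene of the list. Among the C4 demethylation enzymes, Msmo1 (chr8:64718139-64733792) went from 53.9 and 50.2 CPM to 440 and 222 (log2 2.67 ± 0.31, SE, edgeR adjusted p = 0.0138). Nsdhl (chrX:72918557-72958514), its partner, went from 18.5 and 18.9 CPM to 134 and 83.7 (log2 2.54 ± 0.30, SE, edgeR adjusted p = 0.016). Hsd17b7 of the same complex had a log2 fold change of 1.02 and did not pass.

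At the end of the pathway, Dhcr7 (chr7:143823145-143848410), which reduces 7-dehydrocholesterol to cholesterol, read 12.0 and 11.7 CPM in WT-EtOH and 92.6 and 48.6 in Elf4-/--EtOH (log2 2.57 ± 0.29, SE, edgeR adjusted p = 0.0134). The late enzymes Lss, Cyp51, Tm7sf2, Ebp and Sc5d had log2 fold changes of 0.80 to 1.77 with no overlap between groups (20% of all genes). None of them passed the adjusted threshold in edgeR, and Lss, Cyp51 and Sc5d passed it in DESeq2. In the 7 called genes replicate 1 of Elf4-/--EtOH was above replicate 2 for 6. The number of list members called fell to 0 without either WT-EtOH library and was 14 or 15 without either Elf4-/--EtOH library. The count of genes higher stayed at 19 or 20 of 21 with each library left out and at 19 under library totals alone.

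**Figure D2:**
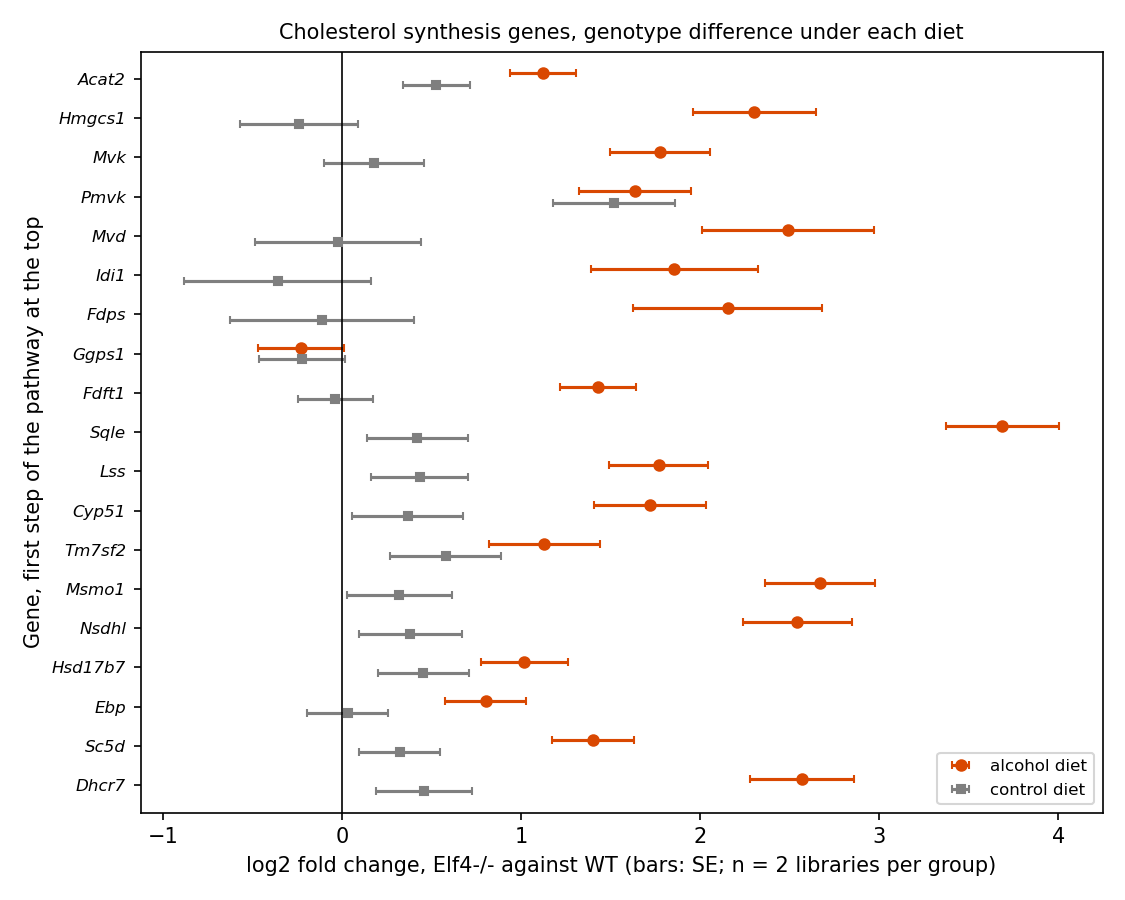
Log2 fold change of Elf4-/- against WT for 19 of the 21 cholesterol synthesis genes in pathway order, with SE bars, under the alcohol diet (circles) and the control diet (squares). Under alcohol 18 of the genes plotted lie above 0 and Ggps1 lies below, and the medians over all 21 are 1.77 under alcohol and 0.32 under the control diet.

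The genotype difference in this pathway was smaller on the control diet, where 15 of 21 genes were higher, 0 were called by edgeR (2 of all genes, 0.0143%, with 0.00715% in each direction) and 3 had an unadjusted p under 0.05 (7.31% of all genes, 4.37% higher and 2.94% lower). The interaction of genotype and diet was positive at an unadjusted p under 0.05 for 16 of the 21 genes, against 4.94% of all genes, and no gene of the table passed after adjustment (edgeR, smallest adjusted p = 0.108; 1411 genes, 10.1%, at an unadjusted p under 0.05; DESeq2 called 111, 0.793%). For Sqle the interaction was 3.27 on the log2 scale. Levels moved on both sides: Sqle read 33.6 and 28.7 CPM in the WT-Control pair, with 44.8 and 38.3 for Elf4-/--Control, above WT-EtOH and below Elf4-/--EtOH. Over the list, both WT-EtOH libraries lay below the other 6 for 9 of the 21 genes (10.5% of all genes) and both Elf4-/--EtOH libraries lay above the other 6 for 15 (4.25% of all genes).

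Regulators and transporters of sterol were less uniform. Of 16 genes, 10 were higher, 0 passed the adjusted threshold, 8 were higher (6.18% of all genes) and 1 lower (4.32%) by unadjusted p under 0.05, and the median was 0.43 (0.09 without Elf4-/--EtOH replicate 1, and 0.20 under library totals alone). Srebf2 itself read 29.6 and 25.7 CPM in WT-EtOH and 59.9 and 39.5 in Elf4-/--EtOH (log2 0.85, edgeR unadjusted p = 0.00551). Both retention genes had overlapping or widely spread replicates. Insig1 read 141 and 104 CPM against 193 and 369. Insig2 read 97.0 and 40.9 CPM against 340 and 53.7, and its log2 fold change of 1.51 turned to -0.35 without Elf4-/--EtOH replicate 1. Among efflux genes, Abcg1 read 11.8 and 12.1 CPM against 4.94 and 5.17 (log2 -1.24, edgeR adjusted p = 0.203) and Abca1 read 87.8 and 84.1 against 120 and 135 (log2 0.57).

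Fatty acid and triglyceride synthesis gave 1 call. Of 22 genes, 21 were tested, 18 were higher (50.1% of all genes), 1 passed (0.121%), 11 were higher by unadjusted p under 0.05 (6.18%) and DESeq2 called 5 (1.06%), with a median of 0.84 that was 0.32 without Elf4-/--EtOH replicate 2. The control diet gave a similar picture, with 20 of 21 higher, 12 of them by unadjusted p (4.37% of all genes), and a median of 0.83. The called gene was Thrsp (chr7:97412938-97417730), a thyroid hormone and SREBP1 responsive regulator of lipogenesis. It read 26.8 and 42.6 CPM in WT-EtOH and 382 and 444 in Elf4-/--EtOH, an 11.9-fold rise (log2 3.57 ± 0.28, SE, edgeR adjusted p = 0.00173). On the control diet it went from 99.9 and 103 CPM (WT-Control) to 518 and 550 (Elf4-/--Control), log2 2.39, where edgeR also called it (adjusted p = 0.0255).

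Other lipogenic genes stood at different levels in the 2 Elf4-/--EtOH libraries. Srebf1 read 39.96 and 50.03 CPM in WT-EtOH, 46.7 in replicate 1 of Elf4-/--EtOH and 230 in replicate 2. Fatty acid synthase (Fasn) read 82.4 and 88.2 CPM in WT-EtOH and 169 and 619 in Elf4-/--EtOH (log2 2.21 ± 0.55, SE, edgeR adjusted p = 0.199, DESeq2 adjusted p = 0.000274), or 0.98 on the log2 scale without replicate 2 of Elf4-/--EtOH. ATP citrate lyase (Acly) followed, at 28.2 and 37.8 CPM against 39.7 and 161. In these genes replicate 2 was the high library, whereas 16 of 21 cholesterol synthesis genes were higher in replicate 1. Of the 21 genes tested, 7 were higher in replicate 1, among them Acss2, which makes acetyl-CoA from acetate, at 46.7 and 48.1 CPM against 198 and 127 (log2 1.77 ± 0.28, SE, edgeR adjusted p = 0.0521). Acacb, the acetyl-CoA carboxylase at mitochondria, read 71.9 and 69.9 CPM against 218 and 173 (log2 1.46). Several members sat near their WT-EtOH level, such as Acaca at 53.4 and 66.8 CPM against 53.4 and 58.2, and Dgat1 at 31.4 and 30.2 against 34.9 and 27.7.

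**Figure D3:**
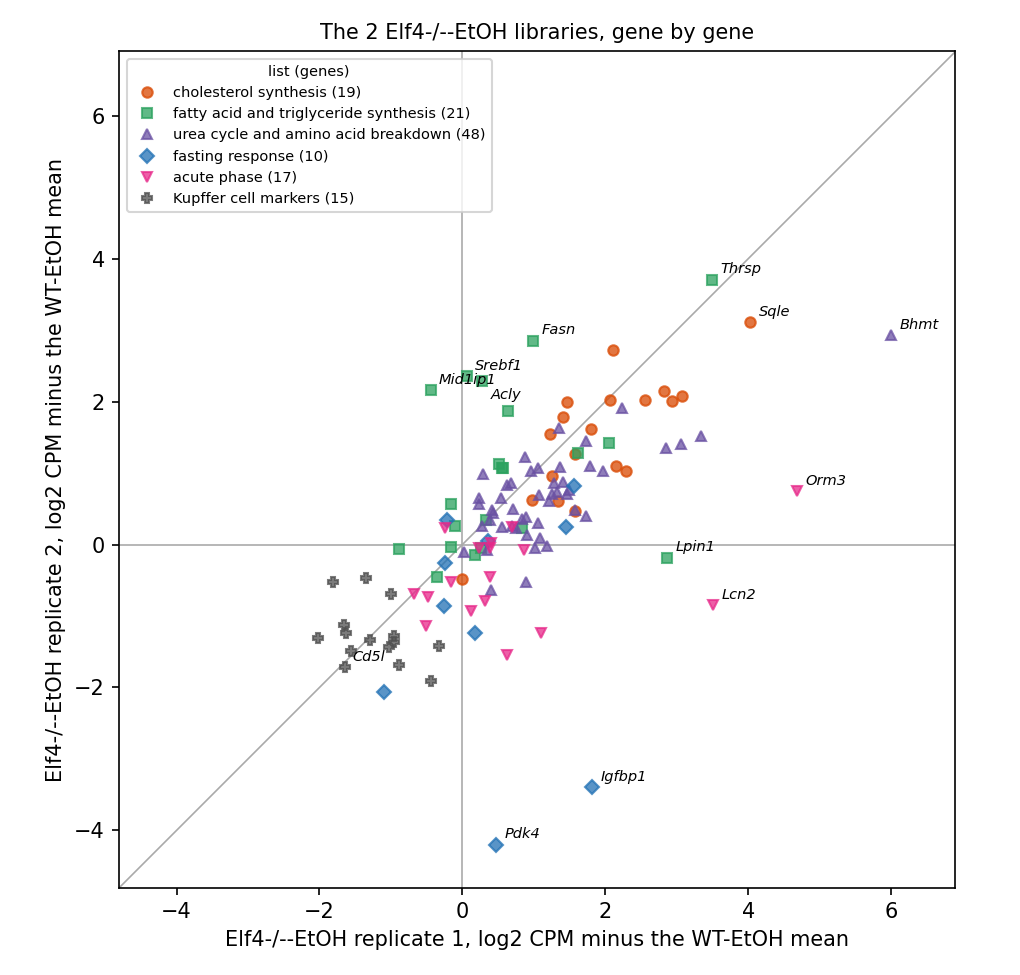
The 2 Elf4-/--EtOH libraries plotted against each other, each gene as log2 CPM minus the mean of the 2 WT-EtOH libraries, for 6 gene lists with the number of genes plotted from each. Points on the diagonal had the same difference in both replicates; Thrsp and Cd5l lie near it, Srebf1, Acly and Mid1ip1 lie far above it, and Igfbp1, Pdk4, Lpin1 and Lcn2 far below.

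The replicates parted in the opposite direction for genes of fasting and inflammation. Igfbp1, an insulin-suppressed binding protein, read 437 CPM in replicate 1 of Elf4-/--EtOH and 11.5 in replicate 2, against 152 and 102 in WT-EtOH. Pdk4, which limits glucose oxidation, read 219 and 8.36 CPM against 135 and 186. Lpin1, a phosphatidate phosphatase, read 267 and 32.1 CPM, but WT-EtOH was as spread, at 97.5 and 13.6. In the fasting response list 9 of 10 genes were higher in replicate 1 than in replicate 2, and the list median was -0.08 (-0.55 with Elf4-/--EtOH replicate 1 dropped, 0.24 with replicate 2 dropped), and 0 of 10 passed the adjusted threshold (edgeR; 1 higher, 2 lower by unadjusted p under 0.05; DESeq2 called 0). Fgf21, a fasting-induced hormone of hepatocytes, was at 12.5 and 21.4 CPM in WT-EtOH and 7.49 and 3.71 in Elf4-/--EtOH (log2 -1.61, edgeR adjusted p = 0.239).

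Acute phase genes gave the same division. In 16 of 17 the level was higher in replicate 1 of Elf4-/--EtOH than in replicate 2. The WT-EtOH pair was at least as far apart, with summed levels of 19210 and 10240 CPM against 14050 and 10960 in Elf4-/--EtOH. The median log2 fold change of the list was -0.03, and edgeR and DESeq2 called 0 genes (edgeR, 2 higher and 2 lower by unadjusted p under 0.05). Dropping 1 library moved that median to -0.59 (Elf4-/--EtOH replicate 1), 0.19 (replicate 2), 0.59 (WT-EtOH replicate 1) or -0.61 (replicate 2). On the control diet 0 of 17 were higher in Elf4-/-, with a median of -0.98. There 11 were lower by unadjusted p under 0.05 (2.94% of all genes). The interaction was positive by unadjusted p for 7 of the 17 (4.94% of all genes). Lcn2, a siderophore-binding protein, read 138 CPM in replicate 1 of Elf4-/--EtOH and 6.501 in replicate 2, against 21.1 and 6.62 in WT-EtOH. Orm3 read 112 and 7.03 CPM against 6.70 and 2.45. Matrix genes were higher in replicate 1 for 14 of 14 tested members and cell cycle genes for 14 of 15. Their medians were 0.05 and 0.35, or -0.44 and -0.22 without Elf4-/--EtOH replicate 1. No member of either list was called (edgeR and DESeq2; 0 at an unadjusted p under 0.05 in both lists). Lipid droplet genes were higher in replicate 1 for 12 of 14, with a median of 0.02 (-0.39 without that library and 0.46 without replicate 2), 0 called by either test and 2 higher, 2 lower by unadjusted p under 0.05. Among those, Plin2, the droplet coat protein, read 673 and 774 CPM in WT-EtOH and 560 and 355 in Elf4-/--EtOH (log2 -0.66). What divides these 2 libraries was not tested.

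Kupffer cell markers were lower in Elf4-/--EtOH throughout the list. Of 15 markers tested, 15 were lower (49.9% of all genes) and 2 passed the adjusted threshold (0.0214% of all genes). All 15 had an unadjusted p under 0.05 (4.32% of all genes), and DESeq2 called 7 (0.222% of all genes). The median log2 fold change was -1.23 and ranged from -1.36 to -1.07 with an EtOH library left out. Cd5l (chr3:87357881-87371073), a secreted macrophage scavenger receptor protein, read 178 and 177 CPM in WT-EtOH and 56.4 and 53.9 in Elf4-/--EtOH, and fell by 1.69 on the log2 scale (± 0.22, SE, edgeR adjusted p = 0.0268). Clec4f (chr6:83644542-83656187), a C-type lectin used to define murine Kupffer cells, read 231.5 and 238.0 CPM against 96.0 and 92.7, 2.49-fold lower (± 0.20, SE on the log2 scale, edgeR adjusted p = 0.0418). The replicates of both groups lay within a few CPM of each other for these genes.

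The other 13 markers had the same direction and did not pass in edgeR, and DESeq2 called 5 of them, Folr2, Vsig4, C1qa, C1qb and C1qc. Folr2, a folate receptor of resident macrophages, read 15.9 and 18.0 CPM in WT-EtOH and 5.58 and 5.84 in Elf4-/--EtOH (log2 -1.57, edgeR adjusted p = 0.0793). The complement receptor Vsig4 read 37.5 and 35.5 CPM against 11.6 and 15.4 (log2 -1.43), and Timd4, which binds phosphatidylserine on dying cells, read 19.0 and 14.8 against 5.10 and 7.56. The complement genes C1qa, C1qb and C1qc had log2 fold changes of -1.16, -1.23 and -1.13. Adgre1, which encodes the F4/80 antigen, read 7.33 and 7.24 CPM against 1.59 and 2.79. In bulk liver, fewer cells of a type and less RNA per cell cannot be told apart.

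WT-EtOH was the group that stood apart for these markers. Both of its libraries lay above the other 6 for 14 of the 15 genes, against 11.6% of all genes tested, and C6 was the exception, being highest in the control diet groups. The summed level of the list was 1135 and 1042 CPM in WT-EtOH, 482 and 468.9 in Elf4-/--EtOH, 515.9 and 418.2 for WT-Control, and 423.9 and 440.6 for Elf4-/--Control. By list median of log2 CPM minus the WT-EtOH mean, Elf4-/--EtOH (-1.29 and -1.34) stayed above the control diet libraries (-1.78 to -2.04). On the control diet the list median was -0.23 and 0 genes had an unadjusted p under 0.05 in edgeR. The interaction had an unadjusted p under 0.05 in the negative direction for 10 of the 15, against 5.15% of all genes.

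**Figure D4:**
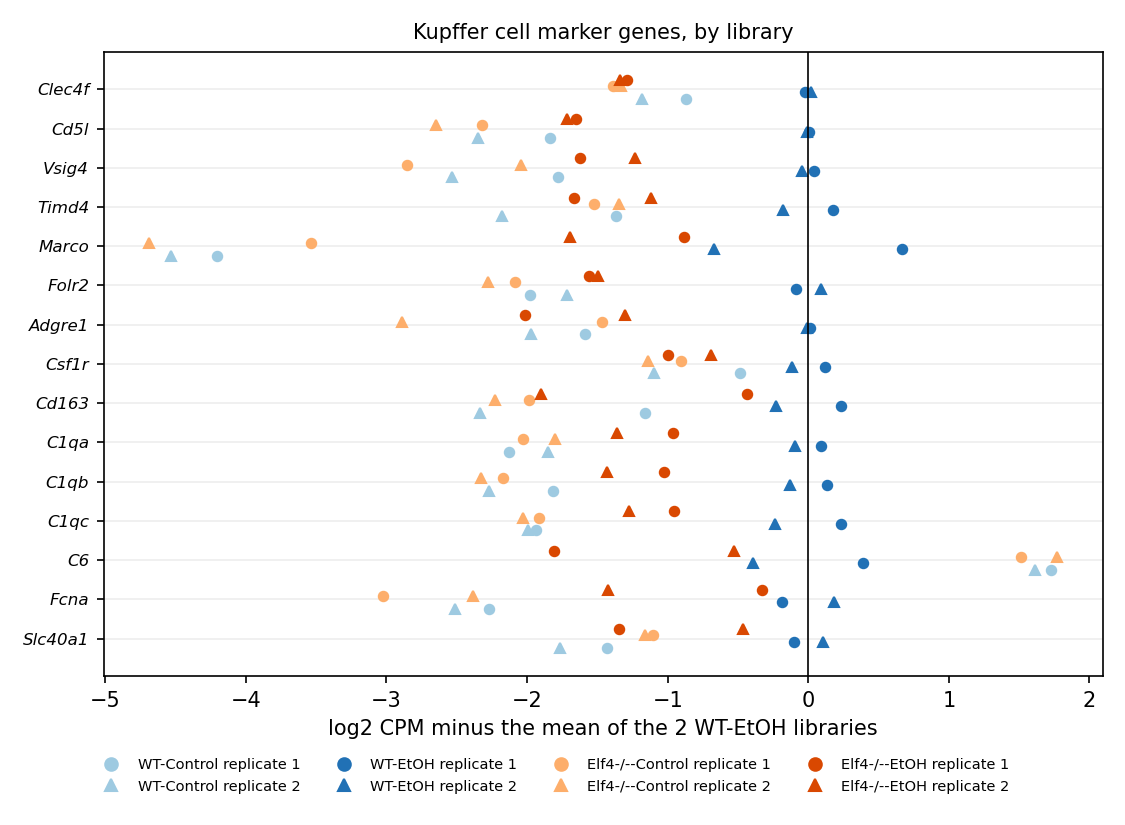
Kupffer cell marker genes in all 8 libraries, as log2 CPM minus the mean of the 2 WT-EtOH libraries, with circles for replicate 1, triangles for replicate 2 and a colour per group. The Elf4-/--EtOH libraries lie left of 0 for all 15 genes, with list medians of -1.29 and -1.34. They lie near the control diet libraries for genes such as Clec4f and Timd4, while the control diet list medians run from -1.78 to -2.04.

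Other non-parenchymal markers were lower to a lesser and less even degree. Sinusoidal endothelial markers were lower for 11 of 12, with 0 called, 5 by unadjusted p under 0.05 (4.32% of all genes) and a median of -0.75 (-0.41 without Elf4-/--EtOH replicate 2, when as without WT-EtOH replicate 2 the 5 became 0). On the control diet 12 of 12 were higher in Elf4-/-, 9 by unadjusted p (4.37% of all genes), with a median of 1.01, and the interaction was negative by unadjusted p for 10 (5.15%). As with the Kupffer cell markers, both WT-EtOH libraries lay above the other 6 for 9 of these 12 genes, against 11.6% of all genes tested. For the stellate cell markers below, 3 of 9 did so. The summed level of the endothelial markers was 489.3 and 590.1 CPM in WT-EtOH and 459.4 and 302.1 in Elf4-/--EtOH. Among them Kdr, the VEGF receptor, read 40.3 and 54.1 CPM against 30.3 and 24.3, and the lectin Clec4g read 68.5 and 75.8 against 47.5 and 29.98. Stellate cell markers were lower for 7 of 9, with 0 called, 0 at an unadjusted p under 0.05 and a summed level of 398.7 and 554.7 CPM against 473.4 and 323.3. Of 13 monocyte and neutrophil markers 6 had enough counts, with 4 lower and 2 higher. Of the 6, 3 were lower at an unadjusted p under 0.05 (4.32% of all genes) and 0 were called. In 3 of the 6 the 2 Elf4-/--EtOH libraries lay on opposite sides of the WT-EtOH mean. Lyz2, the lysozyme of myeloid cells, read 53.2 and 39.8 CPM against 29.0 and 16.4. Lymphocyte markers reached at most 46 counts in WT-EtOH and 17 in Elf4-/--EtOH, with 5 of 10 tested, 5 lower, a median of -0.79 (-1.46 without WT-EtOH replicate 1 and -0.32 without replicate 2) and 0 called. DESeq2 called 0 genes in any of these 4 lists.

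Markers of other tissues had summed levels that overlapped between the groups or lay close together. Bile duct markers summed to 67.65 and 71.74 CPM in WT-EtOH and 67.74 and 95.52 in Elf4-/--EtOH, red blood cell markers to 89.27 and 107.6 against 116.8 and 95.92, and pancreatic acinar markers to 4.81 and 2.75 against 4.78 and 4.25. Intestinal epithelium markers summed to 196.2 and 256 CPM against 179.8 and 204.8, carried by Lgals4 and Fabp2, and the gut mucin Muc2 had at most 14 counts in a library. Of 5 adipose markers 1 was in the table, with at most 2 counts in these libraries. No gene of these 5 lists was called (edgeR and DESeq2), and 1, the intestinal marker Vil1 with 2 and 3 counts against 7 and 9, had an unadjusted p under 0.05. Hepatocyte markers had a median of 0.36, with 7 of 8 higher (50.1% of all genes), 0 called and 2 higher at an unadjusted p under 0.05 (6.18%). They summed to 38260 and 32680 CPM in WT-EtOH and 42250 and 53430 in Elf4-/--EtOH. Both WT-EtOH libraries lay below the other 6 for 5 of these 8 markers, against 10.5% of all genes tested.

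Interferon-stimulated genes were higher in Elf4-/--EtOH for 28 of 33 (50.1% of all genes), or 21 of 33 under library totals alone. The list had 1 call, higher (0.121% of all genes), and a median of 0.41. At an unadjusted p under 0.05, 9 genes were higher (6.18% of all genes) and 0 lower. The 9 became 5 without either WT-EtOH library. Isg15 (chr4:156199424-156200818), whose promoter is printed above, read 5.18 and 4.08 CPM in WT-EtOH and 21.8 and 15.1 in Elf4-/--EtOH, a 3.99-fold rise (log2 1.996 ± 0.29, SE, edgeR adjusted p = 0.0414). Ifit1, which binds foreign RNA, read 11.8 and 10.7 CPM against 22.6 and 28.0 (log2 1.18, edgeR adjusted p = 0.0769), and Usp18, which removes Isg15 from its targets, read 8.85 and 6.73 against 28.1 and 17.6 (log2 1.55, edgeR adjusted p = 0.132). DESeq2 called these 3 genes and no other of the list (1.06% of all genes higher).

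On the control diet the same genes lay the other way. Isg15 read 20.3 and 28.1 CPM in the WT-Control pair, with 12.0 and 10.6 for Elf4-/--Control, and Ifit1 read 36.7 and 34.8 against 19.0 and 21.0. The list median was -0.20 there, with 1 gene higher (4.37% of all genes) and 6 lower (2.94%) at an unadjusted p under 0.05. The interaction was 3.09 for Isg15, 2.02 for Ifit1 and 2.21 for Usp18 on the log2 scale, with unadjusted p of 1.54e-05, 3.13e-05 and 0.000535 and none past adjustment in edgeR. Members such as Irf7, a driver of interferon expression, stayed near one level at 35.7 and 35.8 CPM in WT-EtOH and 32.5 and 43.1 in Elf4-/--EtOH. Oas1a and Oas1g were lower, with log2 fold changes of -0.63 and -0.69 that did not pass, and they belong to a family of near-identical copies whose reads may have been split.

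Of the endotoxin response, several cytokines were near the limit of detection and the sensors were not. Of 19 genes, 13 were tested, 0 passed (edgeR and DESeq2), and 1 was higher at an unadjusted p under 0.05. Tnf had 9 and 5 counts in WT-EtOH and 7 and 2 in Elf4-/--EtOH, Il6 had 4 and 6 against 0 and 3, and Il10 had 1 and 5 against 9 and 2, too few to test. Il1b read 4.55 and 2.75 CPM against 2.55 and 1.19 (log2 -0.97, unadjusted p = 0.147). Ccl2, a monocyte chemoattractant, read 0.25 and 2.14 CPM in WT-EtOH against 8.13 and 0, so replicate 1 of Elf4-/--EtOH alone set its sign. The list median of 0.20 was -0.67 without that library and -0.03 under library totals alone. The chemokine Cxcl1 read 11.8 and 13.6 CPM against 35.4 and 9.55, and Il18 read 12.3 and 11.4 against 15.3 and 19.8 (log2 0.57, unadjusted p = 0.0321). At these counts a difference in Tnf, Il6 or Il10 was not detectable. The fibrosis marker Acta2 read 2.53 and 3.06 CPM against 4.62 and 2.79, and the tight junction genes Tjp1 and Ocln had log2 fold changes of 0.15 and -0.37. In the tight junction list 0 of 9 were called (edgeR and DESeq2; 1, Cldn14, at an unadjusted p under 0.05).

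Of the heat shock genes, 1 of 15 was called, lower (0.0214% of all genes). Hspa1b (chr17:34956436-34959238), the inducible HSP70, read 65.4 and 68.0 CPM in WT-EtOH and 5.58 and 14.7 in Elf4-/--EtOH, and fell by 2.70 on the log2 scale (± 0.39, SE, edgeR adjusted p = 0.0414). That value became -3.58 when replicate 2 of Elf4-/--EtOH was dropped and -2.17 when replicate 1 was dropped. Reads could have been split with Hspa1a, almost the same in sequence, which had 23 and 26 counts against 11 and 5. Hsph1 and Dnajb1, co-chaperones of HSP70, read 60.8 and 82.8 CPM against 34.9 and 43.9, and 31.6 and 29.4 against 9.72 and 20.03, neither past the threshold. The mitochondrial chaperone Hspd1 read 297 and 282 CPM against 351 and 236, and Hsp90ab1 read 610 and 546 against 582 and 488. In all, 4 of the 15 were lower (4.32% of all genes) and 0 higher by unadjusted p under 0.05, with a median of -0.35 that was -0.55 without Elf4-/--EtOH replicate 2. Hspa1b in the control diet groups was between 5.84 and 10.5 CPM, so here too WT-EtOH was the high group. The unfolded protein response list had 0 of 21 called (edgeR and DESeq2; 1 higher, 2 lower by unadjusted p under 0.05), and its median of -0.23 was 0.06 without WT-EtOH replicate 1. Creld2, an endoplasmic reticulum chaperone, read 46.9 and 24.9 CPM against 11.9 and 18.8 (log2 -1.21).

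The remaining called genes belong to no single pathway. Chrna4 (chr2:181018380-181043546), a nicotinic acetylcholine receptor subunit, had 4 and 14 counts in WT-EtOH, or 0.51 and 1.43 CPM, and 77.3 and 38.3 CPM in Elf4-/--EtOH. On the log2 scale it rose by 5.82 ± 0.49 (SE, edgeR adjusted p = 0.00173), or 6.78 with WT-EtOH replicate 2 dropped and 5.23 with Elf4-/--EtOH replicate 1 dropped, and on the control diet it read 17.1 and 11.6 CPM for WT against 116 and 88.6 for Elf4-/- (log2 2.84, edgeR adjusted p = 0.0819). Upp2 (chr2:58567298-58792971), the uridine phosphorylase of liver, read 65.1 and 61.6 CPM against 692 and 317 (log2 2.99 ± 0.40, SE, edgeR adjusted p = 0.0288), a value of 2.33 when Elf4-/--EtOH replicate 1 was dropped. Its control diet libraries were at 508 to 994 CPM, so WT-EtOH was again the group apart. Noct (chr3:51224447-51251644), a rhythmic phosphatase of NADP(H), read 24.9 and 30.5 CPM against 106 and 135 (log2 2.12 ± 0.31, SE, edgeR adjusted p = 0.0414).

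Papss2 (chr19:32595790-32667187), which makes the sulfate donor PAPS, read 68.0 and 73.2 CPM in WT-EtOH and 215 and 175 in Elf4-/--EtOH (log2 1.47 ± 0.20, SE, edgeR adjusted p = 0.034). The water and peroxide channel Aqp8 (chr7:123462291-123468004) read 6.20 and 6.22 CPM against 18.5 and 14.7, 2.67-fold higher (± 0.22, SE on the log2 scale, edgeR adjusted p = 0.0461). Tmem254a (chr14:25923300-25927672), a membrane protein with close annotated copies, read 46.4 and 47.6 CPM against 190 and 126 (log2 1.75 ± 0.24, SE, edgeR adjusted p = 0.034). Tlcd2 (chr11:75461715-75470899), a TLC domain membrane protein, read 17.3 and 26.3 CPM against 103 and 71.1 (log2 1.99 ± 0.26, SE, edgeR adjusted p = 0.0263), and shares exon bases with Mir22hg on the same strand. The lincRNA 4930404H11Rik (chr12:71488285-71556133) read 6.32 and 6.52 CPM against 22.0 and 20.7 (log2 1.73 ± 0.26, SE, edgeR adjusted p = 0.0418).

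Amino acid breakdown and the urea cycle formed a further group, chosen as a list after the values were seen and given as a description. Of 48 genes, 46 were higher in Elf4-/--EtOH (50.1% of all genes) and 31 had an unadjusted p under 0.05 in that direction (6.18% of all genes), or 16 without WT-EtOH replicate 2. In edgeR 0 were called, in DESeq2 16 (1.06% of all genes), and the median was 0.75. The urea cycle enzymes Otc and Arg1 read 279 and 182 CPM in WT-EtOH against 414 and 526, and 511 and 395 against 1091 and 813. Cth, which makes cysteine from cystathionine, read 134 and 84.7 CPM against 352 and 290 (log2 1.56, edgeR adjusted p = 0.0648). Bhmt, which returns homocysteine to methionine, read 153 and 71.6 CPM against 6692 and 798, a log2 fold change of 5.06 (edgeR adjusted p = 0.0907) for which replicate 1 lay far above replicate 2. For 34 of the 48 genes both WT-EtOH libraries lay below the other 6 (10.5% of all genes), and on the control diet the list median was -0.04.

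The bile acid gene with the largest difference was Cyp7a1, the rate-limiting enzyme of their synthesis from cholesterol. It read 7.84 and 15.1 CPM in WT-EtOH and 57.2 and 62.0 in Elf4-/--EtOH (log2 2.37 ± 0.68, SE, unadjusted p = 0.00577, edgeR adjusted p = 0.26). Its WT-Control libraries were far apart at 3.54 and 28.0 CPM. Elf4-/--Control read 33.9 and 72.9 CPM, a control diet log2 fold change of 1.75 (edgeR unadjusted p = 0.0265). The interaction for Cyp7a1 was 0.61 on the log2 scale (edgeR unadjusted p = 0.526). Of 14 bile acid genes 0 were called (edgeR and DESeq2), and 2 were higher at an unadjusted p under 0.05 (6.18% of all genes). The list median was 0.14 (-0.10 under library totals alone and -0.04 without Elf4-/--EtOH replicate 1). Enzymes that oxidise ethanol were near the same level in both genotypes. Adh1 read 2217 and 2107 CPM against 2000 and 2272, and Cyp2e1 read 5566 and 4850 against 4250 and 4604. Aldh1b1, a minor mitochondrial aldehyde dehydrogenase, had a log2 fold change of 1.79 at 4.42 and 1.94 CPM against 7.65 and 13.9, called by DESeq2 and not by edgeR (adjusted p = 0.26). Of 8 genes in that list it was the only 1 with an unadjusted p under 0.05.

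Fatty acid oxidation genes were lower for 16 of 24 (49.9% of all genes), with 0 called (edgeR and DESeq2). By unadjusted p under 0.05, 0 were higher and 4 lower (4.32% of all genes). The list median was -0.19, or -0.02 without Elf4-/--EtOH replicate 2. Hadha, of the mitochondrial trifunctional protein, read 219 and 261 CPM against 172 and 153 (log2 -0.56). Clock genes had 0 of 14 called by edgeR (1 higher, 1 lower by unadjusted p under 0.05; DESeq2 called Ciart) and a median of 0.14 that was -0.44 without Elf4-/--EtOH replicate 2 and -0.13 without WT-EtOH replicate 1. Ciart, a repressor of the clock, read 2.91 and 13.3 CPM in WT-EtOH and 29.6 and 26.3 in Elf4-/--EtOH. Its control diet log2 fold change was 1.57 (edgeR unadjusted p = 0.0101) and its interaction was 0.18. Genes of the mitochondrial genome, listed after the values were seen, had a median of 1.07, with 24 of 27 tested and 21 higher (50.1% of all genes). In the higher direction 15 had an unadjusted p under 0.05 (6.18% of all genes), edgeR called 0 and DESeq2 called 9 (1.06%). On the control diet their median was -0.89, with 1 higher, and 8 lower by unadjusted p. mt-Co2 read 355 and 330 CPM against 873 and 720.

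Across the 20 called genes, 16 had the same sign of genotype difference on the control diet, and 6 had an unadjusted p under 0.05 there (7.31% of all genes). For the interaction 18 did (10.1% of all genes), a count that the choice of the genes largely fixes, since the interaction contains the contrast that called them. Both WT-EtOH libraries lay below the other 6 for 14 of the 17 genes that rose (10.5% of all genes). Both Elf4-/--EtOH libraries lay above the other 6 for 7 of them (4.25% of all genes). Both counts share their libraries with the test that called the genes, and are given as a description of where the difference lay. For Noct and Tmem254a both WT-EtOH libraries were not below every other library, and these 2 genes had genotype differences of 1.81 and 1.38 on the log2 scale under the control diet, with interactions of 0.31 and 0.37 (edgeR unadjusted p = 0.479 and 0.295).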

How the data were processed

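Liver total RNA was sequenced by the authors as paired-end reads, aligned to mm10 with HISAT2, handled with SAMtools and counted per gene with HTSeq; versions, annotation and strand setting were not given in the sources used here. The deposited table holds raw read counts for 8 libraries (6171051 to 9157362 counts each). Its 968 rows without a gene name were dropped. From these counts, edgeR 4.0.16 (R 4.3.3) fitted a quasi-likelihood model to 4 groups of 2 libraries with TMM factors and the filterByExpr filter, leaving 13993 genes, and tested the contrast of Elf4-/--EtOH and WT-EtOH and its interaction with diet, both two-sided, with Benjamini-Hochberg adjustment at 0.05. The common biological coefficient of variation was 22.7%. A prior count of 2 was used for the log2 CPM of single libraries, and fold changes were those of the edgeR fit. The SE beside a log2 fold change is its absolute value divided by the square root of the quasi-likelihood F statistic. All groups shared 1 estimate of the spread. The fitting was tested on simulated counts with the same dispersion for every gene and group. The groups here differed in spread, so that test does not gauge the calls given above. DESeq2 1.42.0 and the other settings under the closing section were alternatives. Named genes were all called genes, and in each role of each list the called members and the 2 with the largest change at a mean of at least 50 counts, with Elf4 and 8 cytokine, fibrosis and junction genes; other list members are named as examples chosen after their values were seen. The comparison and the lists were chosen with earlier results of these data known, and the amino acid and mitochondrial genome lists after the values were seen. Coordinates are GENCODE M21 (GRCm38, which is mm10), matched by symbol for 18774 genes. Promoters are from RefSeq on GRCm38.p6, found for 17 of the 20 called genes. Some genes of the lists are counted but not reported here by name or plotted.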

Additional observations from a re-analysis of the deposited data

How the results depend on the processing

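The counts of called genes depended on the samples in the fit and on the test. DESeq2 called 149 higher, 31 lower and 111 for the interaction; without a filter on low counts edgeR called 40, 10 and 7, and with library totals alone 10 and 4. With only the 4 EtOH libraries it called 0 and 0 (no sign turned among the 20 genes). The counts, when each library was dropped in turn, ran from 0 to 272 higher, 0 to 94 lower and 0 to 139 for the interaction, the high values coming without an Elf4-/--EtOH library. The labels do not say whether equal replicate numbers link samples across groups. Replicate differences were little correlated (0.0445 between the EtOH groups, -0.156 to 0.128 over the other pairs of groups), which cannot settle that question. A replicate block called 8 higher, 2 lower and 0 for the interaction. DESeq2 size factors, removal of mitochondrial genome genes and a mean of at least 10 counts kept each count within 1.5 times. No called gene changed sign. Among named genes that were not called, a sign turned with a library left out for these, given as the lowest to highest log2 fold change: Insig2 -0.35 to 2.30, Lpin1 -0.78 to 3.45, Cyp27a1 -0.0597 to 0.92, Aldh1a1 -0.30 to 1.15, Lbp -1.25 to 1.35, Cxcl1 -0.40 to 1.47, Lcn2 -1.06 to 3.43, Col4a1 -0.43 to 1.26, Clock -0.12 to 0.71, Mcm6 -0.80 to 1.12, Hba-a1 -0.0171 to 0.51, Elf4 -0.67 to 0.35, Ccl2 -6.23 to 3.89, Acta2 -0.0012 to 0.71, Nfkbia -0.88 to 0.27, Per3 -0.38 to 1.03, Spp1 -0.014 to 0.54, Fabp2 -0.44 to 1.30, Alas2 -0.9996 to 0.71. With library totals alone Alas2 was -0.10 and Tjp1 -0.0833, and with the replicate block Alas2 was -0.0599. The cause of these changes was not tested. With 2 libraries a group and fewer than 10 counts for Tnf, Il6 and Il10, depth limits what can be said of cytokines.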
